A study of Homo sapiens with 66 samples.

Results

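Origin licensing was followed through 10 genes chosen by name. They are the helicase subunits MCM2, MCM3, MCM4, MCM5, MCM6 and MCM7, the replication factor MCM10, the loaders CDC6 and CDT1, and GMNN, which encodes geminin. All 10 were found among the 20167 genes of the count table, and all 10 passed the low-count filter in each of the 41 comparisons made.

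RNA was sequenced from 66 libraries of human myeloma cell lines, with 3 replicates in each of 22 groups. AMO1 cells, labelled AMO-1 WT, gave 36 libraries, and L363-CFZr cells, a carfilzomib-resistant subline of L363 cells, gave 30. Cells were exposed for 6 h or 24 h to DMSO, the solvent control, or to 1 µM of NCP26, halofuginone (HFG), NCP22 or halofuginol. AMO1 cells were also exposed to carfilzomib (CFZ). The labels do not give the dose of CFZ, and the dose in the paper lies below 1 µM. NCP26 and HFG inhibit prolyl-tRNA synthetase (ProRS), the enzyme that charges tRNA with proline; HFG competes with proline and NCP26 with ATP. NCP22 is the compound from which NCP26 was developed, halofuginol is an analogue of HFG, and CFZ inhibits the proteasome. The resistant subline was used in every L363-CFZr group, DMSO included, and no parental L363 cells are part of the comparisons. Samples taken at 6 h were frozen overnight before RNA extraction whereas those taken at 24 h stayed on ice, so that storage and time cannot be told apart.

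Library totals ran from 1666325 to 5761682 counts in AMO1 cells and from 2487872 to 6596543 in L363-CFZr cells. The 6 plasma cell markers together reached 1880 to 4500 CPM (counts scaled to a common library size) in AMO1 and 1900 to 2860 CPM in L363-CFZr libraries, while the summed markers of T cells, myeloid cells, epithelium and fibroblasts each stayed at or below 11.6 CPM. The sample numbers in the table headers run from 1 to 22 and each occurs 3 times. Read with the index number and cell line in the titles, they were split into 3 groups of 22 libraries, here called sets. This split is an inference, and no label names a set or says what it is. All AMO1 libraries of 6 h share a set with AMO1 DMSO at 24 h, whereas the other AMO1 libraries of 24 h, apart from 1 of CFZ, belong to a different set. In bulk RNA, fewer cells expressing a gene and less of its RNA per cell cannot be told apart, and this holds for every result given here.

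Before a cell copies its DNA, each origin is licensed. The origin recognition complex, CDC6 and CDT1 load MCM2 to MCM7 as a closed ring around DNA, and the ring becomes the motor of the replication fork once CDC45 and the GINS complex join it and MCM10 activates it. Geminin binds CDT1 and so limits loading to once per cycle. Most of these genes are transcribed by E2F factors late in G1, which makes their RNA a common marker of proliferating cells, myeloma cells among them.

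The start regions of 5 members are shown because their RNA moved differently here: MCM6 apart from MCM2 and MCM3, and CDT1 apart from CDC6. All 5 carry at least 1 of the E2F words searched, which are some of the sequences that E2F factors recognise. Sequences are from RefSeq on GRCh38.p14, 280 bases from 250 before to 30 after the annotated start, 5′ to 3′ on the strand of the gene, with the E2F words in capitals. The windows are MCM6 at chr2:135876414-135876693 (minus strand), MCM2 at chr3:127598161-127598440 (plus strand), MCM3 at chr6:52284713-52284992 (minus strand), CDC6 at chr17:40287629-40287908 (plus strand) and CDT1 at chr16:88803539-88803818 (plus strand).
MCM6: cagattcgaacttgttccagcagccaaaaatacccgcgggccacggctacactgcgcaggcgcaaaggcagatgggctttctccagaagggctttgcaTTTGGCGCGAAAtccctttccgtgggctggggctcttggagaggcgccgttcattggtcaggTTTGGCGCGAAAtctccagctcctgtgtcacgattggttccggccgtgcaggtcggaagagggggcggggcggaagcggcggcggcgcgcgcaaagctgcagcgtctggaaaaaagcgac
MCM2: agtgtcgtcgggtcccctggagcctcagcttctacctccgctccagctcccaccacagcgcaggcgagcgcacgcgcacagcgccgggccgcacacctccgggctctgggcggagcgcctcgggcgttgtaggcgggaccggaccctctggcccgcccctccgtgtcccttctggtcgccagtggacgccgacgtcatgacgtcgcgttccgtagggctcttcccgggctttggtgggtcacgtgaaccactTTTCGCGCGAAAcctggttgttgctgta
MCM3: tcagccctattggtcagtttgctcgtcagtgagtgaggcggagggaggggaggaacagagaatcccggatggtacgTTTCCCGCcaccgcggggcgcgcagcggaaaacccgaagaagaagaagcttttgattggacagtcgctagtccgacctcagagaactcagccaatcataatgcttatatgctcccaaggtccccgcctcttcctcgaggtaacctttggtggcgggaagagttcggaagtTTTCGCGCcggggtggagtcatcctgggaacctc
CDC6: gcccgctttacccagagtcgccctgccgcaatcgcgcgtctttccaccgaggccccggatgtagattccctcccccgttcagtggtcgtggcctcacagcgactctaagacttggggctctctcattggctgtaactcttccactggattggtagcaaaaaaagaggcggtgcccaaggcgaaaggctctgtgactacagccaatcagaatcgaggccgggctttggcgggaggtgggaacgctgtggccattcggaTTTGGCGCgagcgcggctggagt
CDT1: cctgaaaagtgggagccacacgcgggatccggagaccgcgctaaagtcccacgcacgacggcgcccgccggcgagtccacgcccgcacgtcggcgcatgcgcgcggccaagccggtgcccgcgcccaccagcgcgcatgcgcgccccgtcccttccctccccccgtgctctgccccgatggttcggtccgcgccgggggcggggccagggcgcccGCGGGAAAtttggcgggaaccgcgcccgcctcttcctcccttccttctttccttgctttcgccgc
The words searched on both strands were TTTCCCGC, TTTGGCGC, TTTCGCGC and TTTGCCGC. At least 1 of them occurred in 3.14% of 35116 promoters of the same length. The 8 members with an entry have 11 such windows, and 7 of the 11, each of a different member, held a word. MCM6 held 4 words as 2 overlapping pairs, MCM2 held 2 that overlap, MCM3 held 2 apart from each other, and CDC6 and CDT1 held 1 each. MCM10 held none of these words in its window. Other forms of E2F site were not searched in any window. The word CCAAT was found in 8 of the 11 windows and in 33.6% of all promoters, the E-box CACGTG in 3 of 11 and 6.94%, TTTGAA (the cell cycle homology region) in 0 of 11 and 14.5%, and the ATF4 word TGATGCAA in 0 of 11 and 0.840%. MCM4 and MCM5 had no entry. A match is a run of letters and not a binding site.

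In GENCODE v44, on GRCh38, MCM2 (ENSG00000073111) spans 127598410 to 127622436 of chromosome 3, MCM6 (ENSG00000076003) spans 135839626 to 135876443 of chromosome 2, and CDT1 (ENSG00000167513) spans 88803789 to 88809258 of chromosome 16. Values are counts over the whole gene, all its transcripts combined, so no exon or UTR is resolved. Of the 31-base words of MCM2 transcripts, 30.2% also occur in ENSG00000285600, which lies on the opposite strand and is not in the count table; whether the counting used strand is not given in the sources used here, so that part of the MCM2 count is uncertain. The same share was 5.73% for CDT1, 3.75% for MCM4, 2.49% for CDC6 and 0.841% for MCM10, and 0 for the other 5.

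Without an inhibitor, the RNAs of the helicase subunits were not equally abundant. Per kilobase of transcript, AMO1 cells in DMSO at 6 h held MCM7 at 173 ± 10.6 CPM (SD, n = 3), the most of the 10 genes, followed by MCM3 at 85.4 ± 6.62, MCM4 at 66.4 ± 1.51 and MCM2 at 57.1 ± 0.291. MCM5 at 46.7 ± 1.08 and MCM6 at 46.5 ± 1.27 did not differ beyond their spread. CDT1 (36.9 ± 4.63) and GMNN (32.9 ± 2.52) did not differ beyond theirs either, and CDC6 at 23.1 ± 0.763 and MCM10 at 13.6 ± 1.02 were the lowest. In L363-CFZr cells MCM7 at 61.9 ± 5.33 and MCM3 at 57.0 ± 4.73 CPM per kilobase overlapped, and MCM10 was again lowest at 6.79 ± 0.453.

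All 10 genes were lower in L363-CFZr than in AMO1 cells in DMSO at 6 h, in an analysis where 31.3% of tested genes were lower, and the median log2 difference was -0.93 against -0.01 over all tested genes. MCM7 gave 433, 448 and 397 CPM in AMO1 and 156, 138 and 164 CPM in L363-CFZr cells. CDT1 gave 110, 99 and 85.8 CPM against 35.9, 39.5 and 42.1 CPM. These were the largest differences, at -1.5 (SE 0.078) and -1.34 (SE 0.11) on the log2 scale, with no overlap between lines. At 24 h, 6 genes were lower in L363-CFZr cells where 20.5% of tested genes were, led by CDT1 at -1.67 (SE 0.13, adjusted p = 1.01e-04). The lines also fall in different sets at both times, so line and set cannot be told apart in these direct comparisons.

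The members also differed between 6 h and 24 h in DMSO, where time and sample storage cannot be told apart. In AMO1 cells, 9 of them were lower at 24 h than at 6 h, where 23.4% of tested genes were lower. MCM5 had the largest difference, -0.85 (SE 0.078), from 165, 162 and 157 to 84.4, 87.9 and 93.8 CPM. CDT1 went the other way and rose by 0.30 (SE 0.088, adjusted p = 0.00748), among the 23.1% of genes that were higher. In L363-CFZr cells, where DMSO of 6 h and of 24 h lie in different sets, only MCM5 was lower at 24 h (-0.76, SE 0.14, adjusted p = 0.019, with 5.81% of genes lower), and without DMSO replicate 2 at 24 h 6 members were called. Each treatment was therefore set against DMSO of its own time and line.

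**Figure D1:**
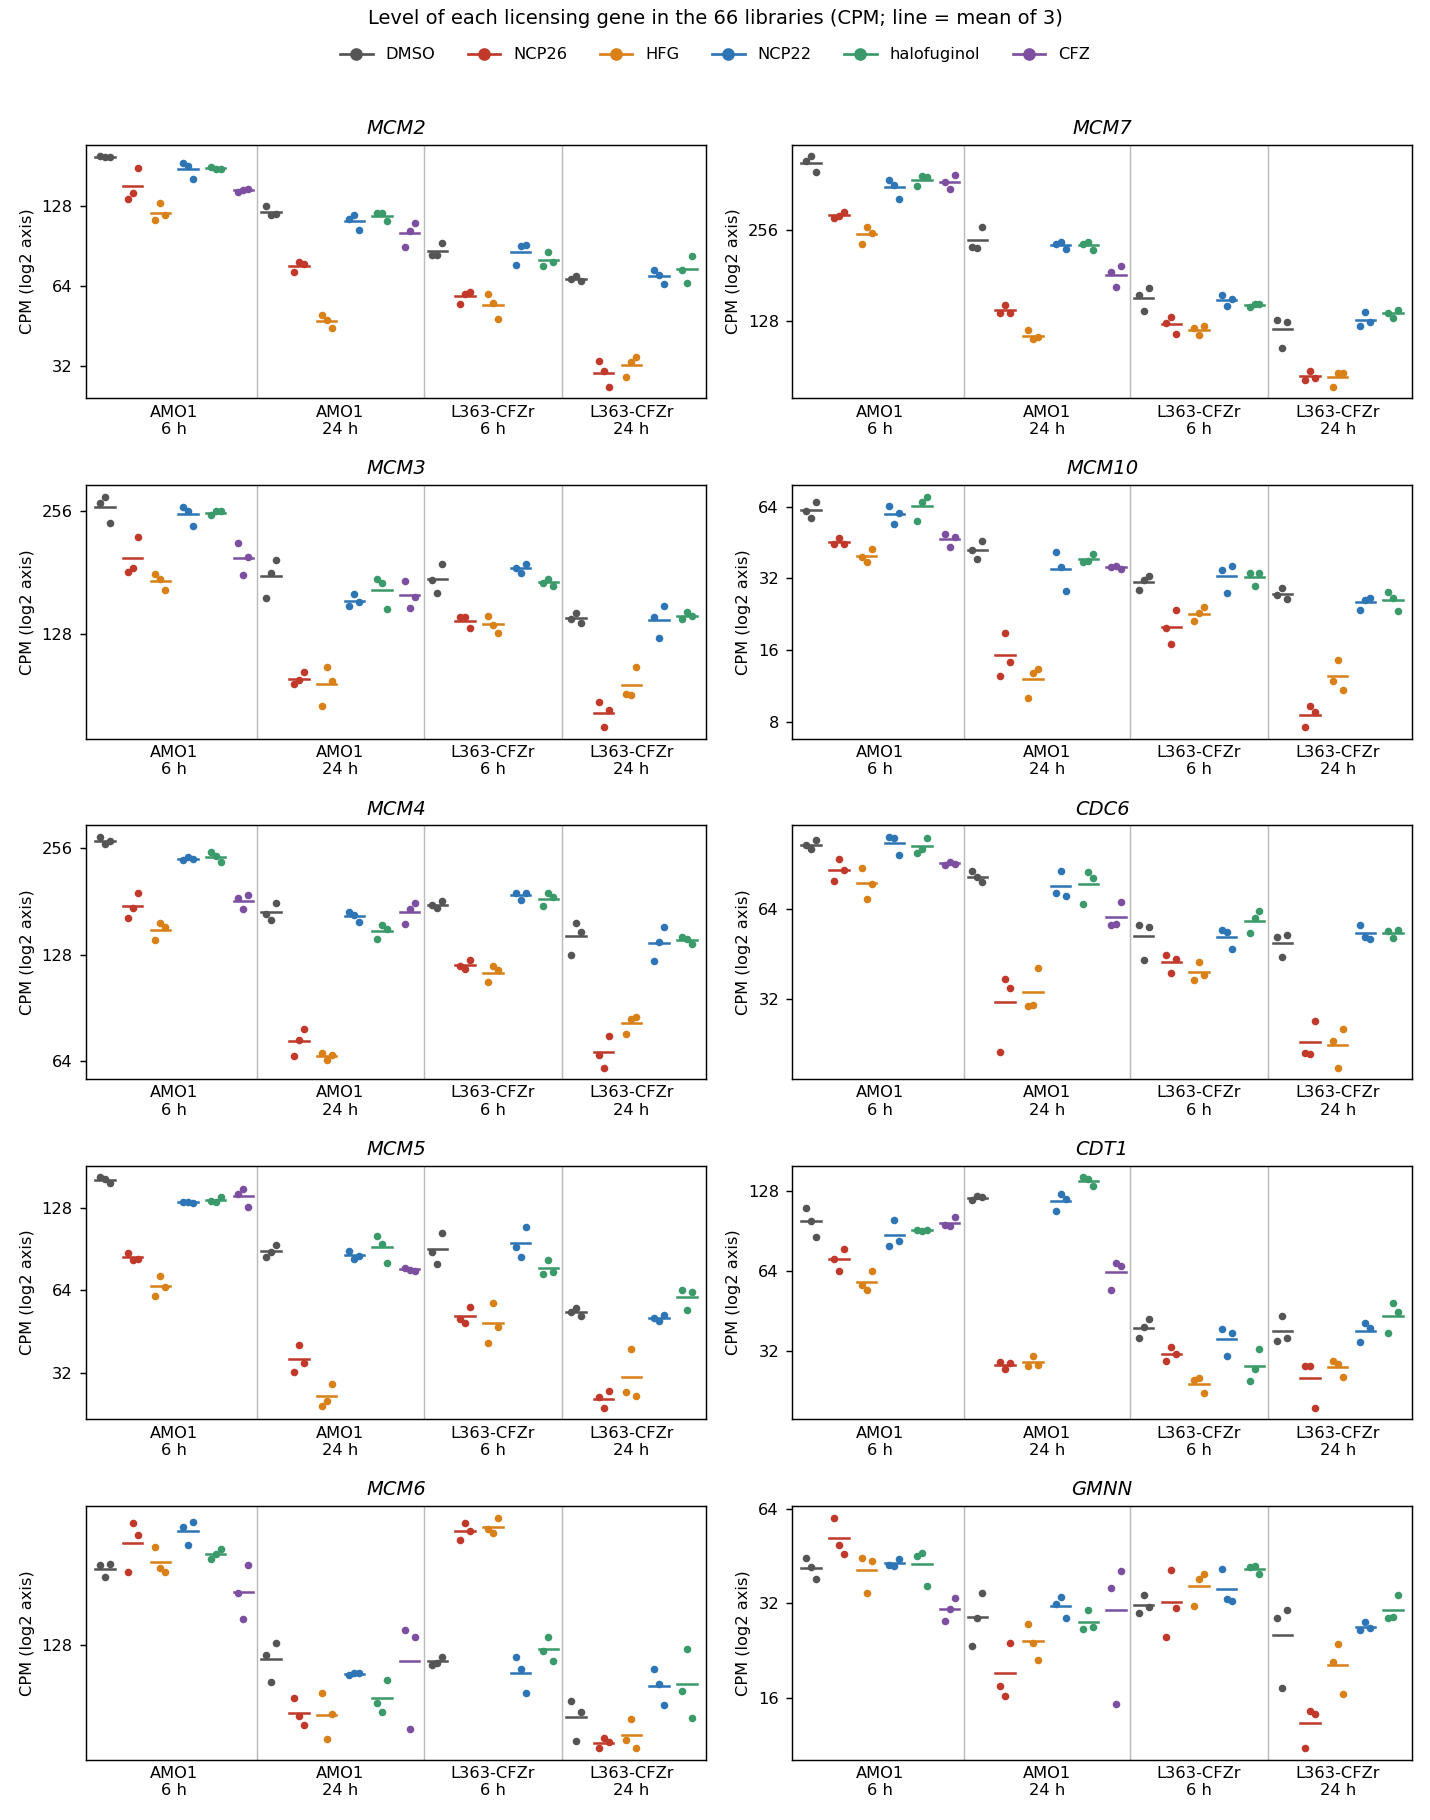
Level of each of the 10 genes in every library, in CPM on a log2 axis, by cell line and time; points are replicates, lines are means of 3 and colours are treatments. In AMO1 cells at 24 h the CDT1 libraries of NCP26 (27.4 to 29.1 CPM) and HFG (28.2 to 30.6 CPM) sit far below those of DMSO (118 to 123 CPM), and in L363-CFZr cells at 6 h the MCM6 libraries of NCP26 and HFG (196 to 215 CPM) sit above those of DMSO (118 to 122 CPM).

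NCP26 lowered the RNA of most of the licensing genes in AMO1 cells within 6 h, and the RNAs of the helicase subunits responded unequally. Of the 10 genes, 8 fell and 0 rose, against 19.2% of tested genes that were lower, with a median of -0.42 against -0.01 for all tested genes. MCM5, a ring subunit at the gate through which DNA enters, fell most, by 0.93 (SE 0.093, adjusted p = 1.72e-05), from 165, 162 and 157 CPM in DMSO to 87.4, 82.4 and 83.2 CPM. MCM4, part of the core of the ring that unwinds DNA, fell by 0.61 (SE 0.098), from 276, 264 and 269 to 163, 174 and 191 CPM. The groups did not overlap for either gene. MCM7, the partner of MCM4 in that core, fell by 0.57, and MCM3, the neighbour of MCM5, and MCM2, on the other side of the gate, fell by 0.41 and 0.36.

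MCM6, the remaining ring subunit, did not follow. Its level was 177, 169 and 178 CPM in DMSO and 172, 210 and 200 CPM with NCP26, a difference of 0.16 (95% interval -0.06 to 0.39, adjusted p = 0.221), with overlapping groups. The overlap came from NCP26 replicate 1, at 172 CPM. That library stood apart, with 15581 genes detected in 2500293 counts, against 13577 and 13636 genes in replicates 2 and 3. GMNN, the inhibitor, was likewise not called at 0.32 (95% interval 0.03 to 0.60, adjusted p = 0.0789), with 44.6, 41.6 and 38.3 CPM in DMSO and 59.9, 49.1 and 45.9 CPM with NCP26. Outside the ring, MCM10 fell by 0.43 (SE 0.11), CDC6 by 0.27 (SE 0.10, adjusted p = 0.0476) and CDT1 by 0.47 (SE 0.12). The call for CDT1 was lost without DMSO replicate 1 and with a correction for GC content, where its difference was -0.17. Without DMSO replicate 1 or replicate 2 the count of members called was 5 in place of 8, and with any other library left out it was at most 7. The share of all tested genes called in these fits is not given here, so the drop need not be particular to the members.

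HFG at 6 h lowered 8 members in AMO1 cells, all but MCM6 and GMNN, against 26.6% of tested genes that were lower, and a median of -0.63 against 0.01. MCM5 fell by 1.25 (SE 0.083, adjusted p = 9.72e-09) to 61.0, 71.9 and 65.6 CPM, all below the NCP26 libraries. MCM4 fell by 0.80, MCM7 by 0.75, CDT1 by 0.71 and MCM2 by 0.67. MCM6 (0.07, 95% interval -0.09 to 0.23) and GMNN (0.01, 95% interval -0.25 to 0.27) were not called. The treatments of a line and time share their DMSO libraries, so their values are set side by side only.

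With CFZ at 6 h in AMO1 cells 6 genes fell, against 12.8% of tested genes, with a median of -0.31 against -0.01. MCM4 fell most, by 0.57 (SE 0.068), to 185, 172 and 189 CPM, while MCM2 and MCM3 each fell by 0.42, MCM10 by 0.41 and MCM7 by 0.21. GMNN fell by 0.44 (SE 0.13, adjusted p = 0.0134), from 44.6, 41.6 and 38.3 to 28.1, 30.8 and 33.2 CPM, with no overlap. CDT1 stayed at 95.7, 94.3 and 102 CPM against 110, 99.0 and 85.8 CPM in DMSO, a difference of -0.02 (95% interval -0.22 to 0.17).

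The weaker analogues moved few members at 6 h in AMO1 cells. With NCP22, MCM5 and MCM7 each fell by 0.26, where 6.08% of tested genes were lower, and MCM6 rose by 0.24 (SE 0.073, adjusted p = 0.0341), where 7.42% were higher. The 3 MCM6 libraries of NCP22 gave 207, 192 and 211 CPM, above all 3 of DMSO, although 0 of the 3 calls were made with a GC correction, without DMSO replicate 1 or 2, or without NCP22 replicate 3. With halofuginol, edgeR called 0 of the 10 genes, where 3.62% of tested genes were called in either direction, and DESeq2 called 0. At an unadjusted p under 0.05, 3 members passed, and without DMSO replicate 3, 2 were called. The share of all tested genes at that p or in that fit is not given here, so these 2 counts cannot be set against it. The largest difference with halofuginol was that of MCM5, -0.24 (95% interval -0.38 to -0.09).

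After 24 h with NCP26, all 10 genes were lower in AMO1 cells, against 30.9% of tested genes, and the median was -1.04 against 0.01. CDT1 fell most, by 2.09 (SE 0.087, adjusted p = 4.69e-19), from 118, 123 and 121 CPM in DMSO to 29.1, 27.4 and 28.8 CPM. MCM10 fell by 1.48 (SE 0.14), from 42.2, 38.5 and 45.7 to 12.5, 18.9 and 14.3 CPM, and CDC6, the other loading factor, fell by 1.4 (SE 0.11), from 85.8, 82.2 and 79.4 to 21.3, 37.5 and 34.9 CPM. No treated library of these 3 genes reached the DMSO range.

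Among the ring subunits at 24 h, MCM5 fell by 1.33 (SE 0.093), to 32.2, 40.4 and 34.6 CPM from 84.4, 87.9 and 93.8 CPM, and MCM4 by 1.22 (SE 0.074). MCM3 fell by 0.86, MCM7 by 0.78 and MCM2 by 0.67. MCM6 had the smallest fall of the 10, 0.32 (SE 0.075, adjusted p = 5.84e-04), with 103, 95.6 and 92.3 CPM against 123, 110 and 129 CPM. GMNN fell by 0.62 (SE 0.16, adjusted p = 9.66e-04), with 17.5, 16.3 and 24.0 CPM against 23.5, 28.8 and 34.5 CPM, and its groups overlapped.

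HFG at 24 h lowered 9 of the genes in AMO1 cells, against 30.5% of tested genes, with a median of -1.30 against 0. CDT1 fell by 2.05 (SE 0.088) to 28.2, 30.6 and 28.5 CPM, MCM10 by 1.78 (SE 0.15) to 10.1, 12.8 and 13.3 CPM, and MCM5 by 1.75 (SE 0.10) to 24.2, 25.3 and 29.2 CPM. MCM2 fell by 1.37 and MCM6 by 0.33, and GMNN was not called at -0.31 (95% interval -0.64 to 0.02). These AMO1 comparisons at 24 h cross the sets. NCP22 at 24 h crosses the same sets and edgeR called 0% of 10781 tested genes there, members included, with 1 member at an unadjusted p under 0.05 and 0 by DESeq2. In a fit of all AMO1 groups with a term for the set, MCM6 was no longer called with either inhibitor (-0.04 with NCP26 and -0.05 with HFG), and GMNN was not called with NCP26 at -0.28. Without that term the fit called 10 members with NCP26 and 9 with HFG. The term rests on CFZ at 24 h alone, the only AMO1 group with libraries in both sets. Replicate 2 of that group, described below, stood apart for MCM6 and GMNN. The lost calls of these genes therefore cannot tell the set from that library. Halofuginol at 24 h moved 0 members by edgeR and 0 by DESeq2, where 0.183% of tested genes were called. At an unadjusted p under 0.05, for which the share of all tested genes is not given here, 3 members passed.

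CFZ at 24 h lowered 3 members in AMO1 cells, against 14% of tested genes: CDT1 by 0.92 (SE 0.12), CDC6 by 0.43 and MCM7 by 0.37. Without CFZ replicate 1, or any 1 DMSO library, 1 member was called. CDT1 was at 54.3, 68.4 and 66.9 CPM, below DMSO and above NCP26 in every library. Replicate 2 of CFZ at 24 h stood apart from the other replicates for MCM6 (90.9 CPM beside 136 and 132) and GMNN (15.3 CPM beside 35.7 and 40.5). Neither gene was called.

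**Figure D2:**
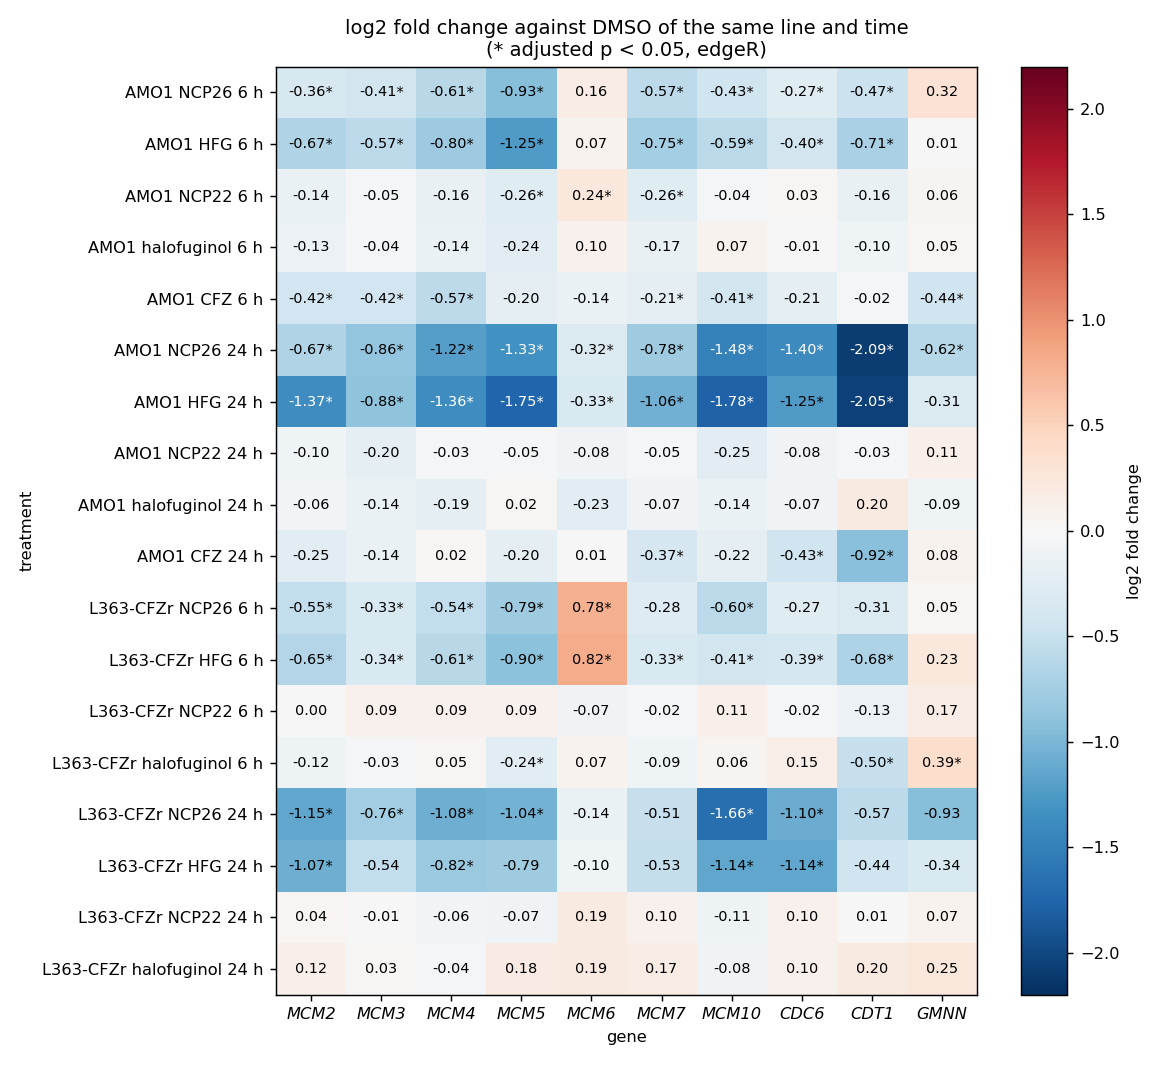
Difference of each gene from DMSO of the same line and time (log2 fold change, colour and number) in the 18 treatment groups; an asterisk marks an adjusted p under 0.05. The rows of NCP26 and HFG are blue across most genes, the MCM6 column is red in L363-CFZr cells at 6 h (0.78 and 0.82), and NCP22 and halofuginol at 24 h carry no asterisk.

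In L363-CFZr cells with NCP26 at 6 h the RNAs of the helicase subunits moved in both directions. MCM2, MCM3, MCM4, MCM5 and MCM10 fell, 5 of the 10 where 8.99% of tested genes were lower, and MCM6 rose where 9.81% were higher. MCM6 gave 118, 119 and 122 CPM in DMSO and 196, 210 and 204 CPM with NCP26, a rise of 0.78 (SE 0.091, adjusted p = 3.49e-04) with no overlap. MCM5 went from 88.2, 79.4 and 103 to 50.3, 48.5 and 55.3 CPM, a fall of 0.79 (SE 0.12, adjusted p = 0.00193). The median of the 10 genes was -0.32 against 0.01, MCM10 fell by 0.60, MCM2 by 0.55, MCM4 by 0.54 and MCM3 by 0.33, and MCM7 missed the threshold at -0.28 (95% interval -0.50 to -0.05, adjusted p = 0.0833).

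HFG at 6 h raised MCM6 to 205, 202 and 215 CPM, by 0.82 (SE 0.066, adjusted p = 3.69e-10), where 26.9% of tested genes were higher, and 8 members fell where 27.5% were lower. The largest fall was that of MCM5, 0.90 (SE 0.11), followed by CDT1 at 0.68 (SE 0.12), from 35.9, 39.5 and 42.1 to 24.9, 25.4 and 22.2 CPM. Against halofuginol, a comparison within a set, CDT1 was not called at -0.17 (95% interval -0.42 to 0.07, adjusted p = 0.24). The comparison of HFG with DMSO crosses the sets, and halofuginol at 6 h, which crosses the same ones, was lower in 12.2% and higher in 13.6% of tested genes. Among the members halofuginol came with a fall of MCM5 (0.24) and CDT1 (0.50) and a rise of GMNN (0.39), and MCM6 was at 0.07 (95% interval -0.06 to 0.20). A fit of all L363-CFZr groups kept 1 of these 3 halofuginol calls, and the same fit with a term for the set kept 0. For HFG the first kept all 9 calls and the second 6, with MCM6 at 0.99, and lost MCM3, MCM7 and CDC6. The term for the set rests on NCP22 at 6 h alone, the only L363-CFZr group with libraries in different sets. Calls kept or lost with it therefore depend on the replicates of that group. MCM6 after NCP26, a comparison within a set, was called in all 7 alternatives, between 0.66 and 0.78, and in all 6 fits without 1 library, between 0.76 and 0.80.

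NCP22 at 6 h gave 0 calls among the members and 0% over all tested genes in L363-CFZr cells by edgeR, with 0 members at an unadjusted p under 0.05 and 0 calls by DESeq2; MCM6 was at 122, 116 and 105 CPM. At 24 h, within a set, NCP26 lowered MCM2 (by 1.15), MCM3 (0.76), MCM4 (1.08), MCM5 (1.04), MCM10 (1.66) and CDC6 (1.10), 6 of 10 where 4.38% of tested genes were lower, with a median of -0.98 against 0. MCM10 went from 27.2, 29.2 and 26.2 to 7.60, 9.36 and 8.80 CPM (SE 0.16, adjusted p = 0.00193). MCM6 was back at 84.2, 87.6 and 86.0 CPM against 102, 86.4 and 97.4 CPM, a difference of -0.14 (95% interval -0.42 to 0.14).

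CDT1 at 24 h in L363-CFZr cells gave 34.8, 43.4 and 36 CPM in DMSO and 28.2, 28.1 and 19.6 CPM with NCP26, -0.57 (95% interval -0.99 to -0.15, adjusted p = 0.111), not called although the groups did not overlap. GMNN was not called either, with 28.7, 17.2 and 30.4 CPM in DMSO and 11.1, 14.6 and 14.3 CPM with NCP26. Nor was MCM7, with 129, 104 and 127 CPM in DMSO and 81.7, 87.1 and 83.1 CPM with NCP26. The groups of these genes did not overlap. HFG at 24 h lowered MCM2 (1.07), MCM4 (0.82), MCM10 (1.14) and CDC6 (1.14), 4 of 10 where 0.573% of tested genes were lower, with a median of -0.66 against -0.02. DMSO replicate 2 stood apart here: without it the count of members called was 9 for NCP26 and 8 for HFG, and the genes called among all tested went from 757 to 3123 for NCP26. Without NCP26 replicate 2 the count for NCP26 was 2, and without any 1 of the other 5 libraries the count for HFG was 0. For HFG the share of all tested genes called in these fits is not given here. NCP22 and halofuginol at 24 h gave 0 member calls and 0% over all genes, by edgeR and by DESeq2, and 0 members had an unadjusted p under 0.05 in either.

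Because the 6 ring subunits form 1 complex, their shares of the summed MCM2 to MCM7 counts, scaled by transcript length, were also taken in each library. These shares do not depend on library scaling. MCM6 made up 9.81% ± 0.583 (SD, n = 3) of the ring transcripts in AMO1 DMSO at 6 h, 15.1% ± 1.23 with NCP26 and 16.2% ± 1.31 with HFG. At 24 h the shares were 11.1% ± 0.610 in DMSO, 15.7% ± 1.20 with NCP26 and 18.2% ± 1.51 with HFG. In every case the lowest NCP26 or HFG library lay above the highest DMSO library, and at 6 h so did those of NCP22 (12.7% ± 0.999) and halofuginol (11.4% ± 0.144). With CFZ the share was 11% ± 0.821 at 6 h and 12.7% ± 2.03 at 24 h, overlapping DMSO at both times. At 24 h CFZ replicates 1 and 3, at 14.3% and 13.3%, lay above every DMSO library, and replicate 2, at 10.4%, did not.

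In L363-CFZr cells the MCM6 share was 13% ± 0.711 in DMSO at 6 h, 25.7% ± 0.628 with NCP26 and 26.9% ± 0.975 with HFG. It was 12.2% ± 1.09 with NCP22 and 14% ± 0.421 with halofuginol, both overlapping DMSO. At 24 h NCP26 stood at 19.6% ± 0.699 and HFG at 18.6% ± 1.26 against 13.3% ± 0.949. MCM5 moved the other way at 24 h, to 5.38% with HFG against 8.9% in DMSO in AMO1 cells. In L363-CFZr cells it stood at 6.37% with NCP26 against 8.09%, and both were its lowest group means. With NCP26 at 24 h the MCM4 share was lower too, at 10.9% against 14.4% in AMO1 and 14.3% against 18.8% in L363-CFZr cells. That of MCM2 was not lower with NCP26 in AMO1 cells, at 13.4% against 12.3%, but with HFG at 24 h it was 9.75%. In L363-CFZr cells at 24 h the MCM2 share was lower with both, at 7.55% with NCP26 and 7.38% with HFG against 10.4%. Shares add up to a whole, so a rise of MCM6 must lower others. Shares are given as a description, with no test.

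**Figure D3:**
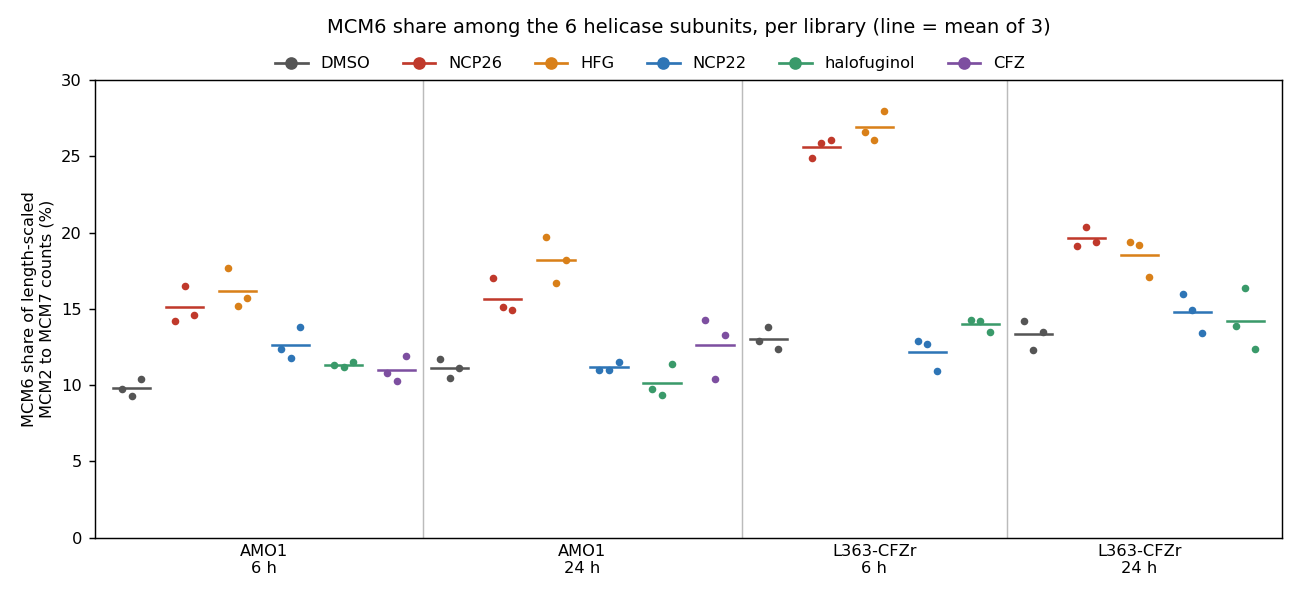
Share of MCM6 among the length-scaled counts of MCM2 to MCM7 in each library, in percent, by line and time; points are libraries and lines are means of 3. The NCP26 and HFG libraries lie above DMSO in all 4 blocks, highest in L363-CFZr cells at 6 h (24.9 to 28%), while NCP22 and halofuginol stay within 9.36 to 16.4%.

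CDT1 and its inhibitor GMNN were compared within each library as log2 of the ratio of their counts. In AMO1 DMSO the ratio was 1.24 ± 0.07 (SD, n = 3) at 6 h and 2.07 ± 0.26 at 24 h. NCP26 shifted it by -0.78 at 6 h and by -1.5 at 24 h, and HFG by -0.72 and -1.81. CFZ at 6 h shifted it upwards by 0.42. Each of these 5 shifts left no overlap with DMSO, and each had an exact permutation p of 0.1 (two-sided), the smallest that 3 against 3 allows, so none of the 18 comparisons of this ratio could pass 0.05, before or after adjustment. With CFZ at 24 h the ratio shifted by -0.92 with overlap (exact permutation p = 0.3).

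In L363-CFZr DMSO the ratio was lower, 0.30 ± 0.12 at 6 h and 0.62 ± 0.61 at 24 h. It shifted by -0.89 with HFG, -0.85 with halofuginol and -0.30 with NCP22 at 6 h, without overlap (exact permutation p = 0.1 each), and by -0.32 with NCP26 (exact permutation p = 0.2). The comparisons of HFG and halofuginol with DMSO cross the sets, as does 1 library of NCP22, while that of NCP26 does not. Within their set the ratio was -0.58 ± 0.24 with HFG and -0.55 ± 0.24 with halofuginol (SD, n = 3), closer than the spread. At 24 h all 4 treatments overlapped DMSO, with shifts between -0.15 and 0.29. In DMSO replicate 2 at 24 h GMNN was at 17.2 CPM beside 28.7 and 30.4 CPM, and this library widens the spread of the ratio there.

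**Figure D4:**
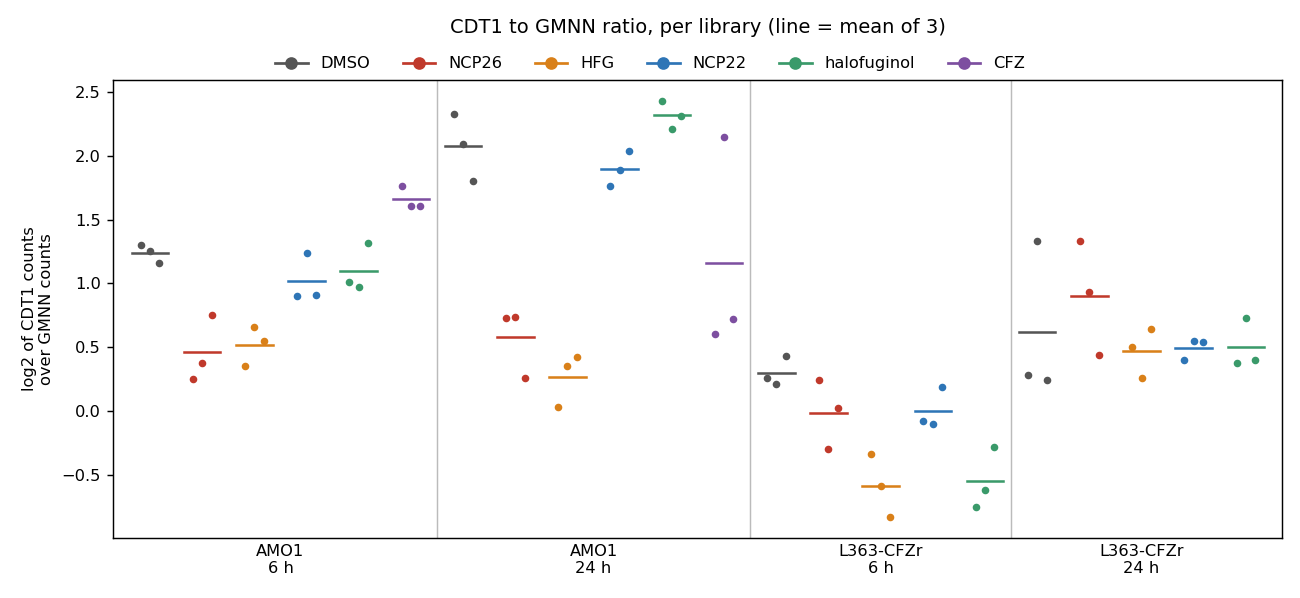
Log2 ratio of CDT1 to GMNN counts in each library, by line and time; points are libraries and lines are means of 3. In AMO1 cells at 24 h the DMSO mean is 2.07 and the NCP26 and HFG means are 0.58 and 0.27, whereas in L363-CFZr cells at 24 h every treated group overlaps DMSO.

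The compounds were compared directly in 12 pairs at 1 µM and matched times. NCP26 against NCP22, from which it was developed, lowered MCM3, MCM4, MCM5, MCM7 and MCM10 at 6 h in AMO1 cells, 5 of 10 where 12.2% of tested genes were lower. Without NCP22 replicate 1 this count was 2. At 24 h, with both groups in 1 set, all 10 members were lower with NCP26, where 25.7% of tested genes were, led by CDT1 at -2.04 (SE 0.094) and ending with MCM6 at -0.22 (SE 0.075, adjusted p = 0.0265). HFG against halofuginol, its analogue, lowered 8 members at 6 h (26.1% of tested genes lower) and 8 at 24 h (28.7%), MCM6 and GMNN being the exceptions at both times, with MCM6 at -0.03 (95% interval -0.16 to 0.10) and -0.09 (95% interval -0.28 to 0.10).

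In L363-CFZr cells NCP26 against NCP22 at 6 h, where 1 NCP22 library lies in another set, lowered 5 members (10.4% of tested genes lower) and raised MCM6 by 0.84 (SE 0.11, adjusted p = 4.27e-04, with 9.96% higher). HFG against halofuginol at 6 h, within a set, lowered 7 members (24.2%), with CDT1 and GMNN not called, and raised MCM6 by 0.76 (SE 0.051, adjusted p = 3.40e-13, with 23.1% higher). At 24 h all 10 members were lower in both pairs, where 17.9% of tested genes were lower for NCP26 against NCP22 and 12.3% for HFG against halofuginol. CDT1 was among them at -0.58 (SE 0.14, adjusted p = 0.00625) and -0.65 (SE 0.12, adjusted p = 0.00146), beside the values against DMSO that were not called.

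For NCP26 against HFG at 6 h edgeR called 0 members in AMO1 cells, where 0.260% of tested genes differed in either direction, and DESeq2 called 0. At an unadjusted p under 0.05, for which the share of all tested genes is not given here, 6 members passed. The largest difference was that of MCM5, 0.34 (95% interval 0.13 to 0.55), and all 10 values were above 0. The members were measured in the same libraries and tend to move together, so a shared sign is not a set of independent results. In L363-CFZr cells, where this pair crosses the sets, 0 members and 0% of tested genes were called, by edgeR and with 0 members by DESeq2, 1 member had an unadjusted p under 0.05, and MCM6 differed by -0.04 (95% interval -0.23 to 0.14). At 24 h in AMO1 cells MCM2 (by 0.69, SE 0.092), MCM5 (by 0.42) and MCM7 (by 0.27) were higher with NCP26 than with HFG. These 3 of 10 are near the share of all tested genes that were higher, 22.6%. CDT1 differed by -0.05 (95% interval -0.31 to 0.22). In L363-CFZr cells at 24 h only GMNN was lower with NCP26, by 0.59 (SE 0.18, adjusted p = 0.0453). This 1 of 10 is near the share of all tested genes that were lower, 7.43%. DESeq2 made 0 calls there, as did edgeR without HFG replicate 1 or 2 or NCP26 replicate 2.

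Whether an effect differed between times was tested as an interaction, 24 h minus 6 h. The effects at both times use DMSO of their own time. With NCP26 in AMO1 cells 8 members had a lower log2 difference from DMSO at 24 h than at 6 h, where 10.1% of tested genes did, led by CDT1 at -1.63 (SE 0.14, adjusted p = 7.71e-07), CDC6 at -1.14 and MCM10 at -1.05. MCM6 and GMNN were among the 8, and had not been called at 6 h (0.16 and 0.32). MCM2 (-0.33) and MCM7 (-0.22) were not called. With HFG 8 members were lower in the same sense, MCM6 (0.07 at 6 h) among them, where 21% of tested genes did, led by CDT1 at -1.32 and MCM10 at -1.16, with MCM3 (-0.28) and GMNN (-0.29) not called. In a fit of all AMO1 groups the counts were 8 and 7, and with a term for the set both were 5. That term rests on the CFZ libraries of 24 h alone. The share of all tested genes called in these fits is not given here, so the counts cannot be set against it.

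CFZ over time gave 1 member call in each direction, near the share of all tested genes in both. MCM4, which fell at 6 h, was at 0.02 at 24 h, an interaction of 0.58 (SE 0.12, adjusted p = 0.00495, with 8.05% of tested genes higher), and CDT1, at -0.02 at 6 h, had an interaction of -0.91 (SE 0.16, adjusted p = 0.00116, with 11.6% lower). In L363-CFZr cells the effect of NCP26 dropped by 0.91 for MCM6 (SE 0.14, adjusted p = 0.0147) and by 1.05 for MCM10 (SE 0.21, adjusted p = 0.0452), where 0.564% of tested genes were lower. The MCM6 call was kept in 7 of 12 fits without 1 library and the MCM10 call in 2 of 12; without DMSO replicate 2 at 24 h, 5 members were called.

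Between the lines, the effect of NCP26 at 6 h differed for 1 member. MCM6 responded more in L363-CFZr than in AMO1 cells, by 0.60 (SE 0.13, adjusted p = 0.016), where 1.96% of tested genes had a higher effect, and the call was lost without L363-CFZr DMSO replicate 1, at 0.59. The other 9 had intervals that included 0. At 24 h the effect on CDT1 was weaker in L363-CFZr cells, by 1.5 (SE 0.19, adjusted p = 0.00117), where 2.97% of tested genes were higher. For HFG at 24 h CDT1 differed by 1.60 (SE 0.16, adjusted p = 5.33e-05), MCM5 by 0.95, MCM4 by 0.52 and MCM7 by 0.52, 4 of 10 where 8.06% of tested genes were higher.

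The 24 h arms in AMO1 cells cross the sets, so the same differences were also taken against the analogue of the same set in place of DMSO, an alternative chosen after the data were seen. CDT1 then differed by 1.46 (adjusted p = 1.4e-05) with NCP22 as the reference for NCP26 and by 1.61 (adjusted p = 5.42e-08) with halofuginol as the reference for HFG. MCM5 differed by 0.80, MCM4 by 0.39 and MCM7 by 0.29 in the latter, all called. Each of these references also gained 1 member call over DMSO as the reference. The share of all tested genes called with them is not given here. With DMSO as the reference and 1 library left out, MCM4 was called in 6 of 12 fits and MCM7 in 7 of 12, while CDT1 and MCM5 were called in all 12. CDT1 started lower in L363-CFZr cells, at 38.1 ± 4.63 CPM (SD, n = 3) in DMSO against 121 ± 2.42 CPM, and ended at 25.3 ± 4.95 CPM with NCP26 against 28.5 ± 0.925 CPM. The NCP26 libraries of the lines overlapped, and those of DMSO did not.

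**Figure D5:**
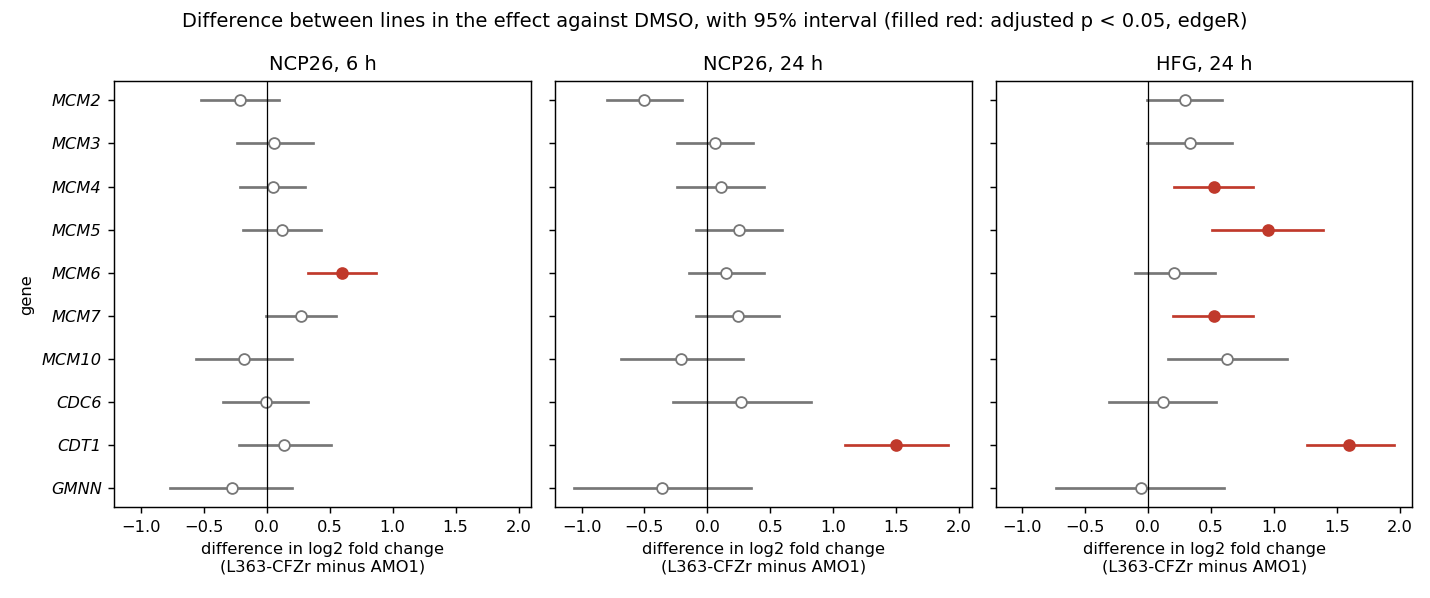
Difference between lines (L363-CFZr minus AMO1) in the log2 effect against DMSO for each gene, with 95% intervals; filled red points have an adjusted p under 0.05. MCM6 alone is called for NCP26 at 6 h (0.60), CDT1 alone for NCP26 at 24 h (1.5), and MCM4, MCM5, MCM7 and CDT1 for HFG at 24 h (0.52 to 1.60).

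Other genes of origin firing were read from lists written with earlier results known, and are given as counts. In AMO1 cells with NCP26 at 24 h, 15 of 18 genes of helicase activation, the group that turns the loaded ring into a fork, were lower and 0 higher, with a median of -0.92 against 0.01 for all tested genes, of which 30.9% were lower (3333 of 10787) and 3214 were higher. Of 20 fork genes (polymerases, clamp and primase), 14 were lower and 1 higher, and of 11 genes that control licensing (cyclins, kinases and ubiquitin ligase parts), 9 were lower and 0 higher. The E2F and RB list was mixed, with 7 lower and 3 higher of 13. The origin recognition complex had 2 lower and 2 higher of 6, near the share of all tested genes, with a median of 0. At 6 h, where 19.2% of tested genes were lower (2043 of 10666) and 1932 were higher, 3 genes of helicase activation were lower and 2 higher of 18, near that share, 6 fork genes were lower and 1 higher, and 7 control genes were lower and 0 higher, while the E2F and RB list and the origin recognition complex each had 1 lower and 2 higher. In L363-CFZr cells with NCP26 at 24 h, 8 genes of helicase activation, 5 fork genes and 5 control genes were lower, and 0 were higher, where 4.38% of tested genes were lower. Genes called in that comparison numbered 757, but 3123 without DMSO replicate 2 and 112 without NCP26 replicate 2, and the lists were not counted without these libraries. Of MCM8, MCM9 and MCMDC2, relatives of the ring subunits, 2 were expressed enough to test, and edgeR called 0 of them at either time, with 1 at an unadjusted p under 0.05 at 6 h and 0 at 24 h.

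Named by rule as the largest called changes of each list at 24 h with NCP26, GINS2, a GINS subunit, fell by 1.69 (SE 0.16), and RECQL4, a helicase needed for firing, by 1.68. POLE2 and POLD1, polymerase subunits, fell by 2.29 (SE 0.40) and 1.76. CCNE1 and CCNA2, the cyclins E1 and A2, fell by 1.94 and 1.57, and E2F2 and TFDP1, an E2F factor and its dimer partner, by 1.23 and 1.14. ORC1 and ORC5, both subunits of the origin recognition complex, went apart: ORC1 fell by 1.57 (SE 0.13) and ORC5 rose by 0.76 (SE 0.14), having already stood at -0.37 and 0.76 at 6 h. In L363-CFZr cells with NCP26 at 6 h, when MCM6 rose, ORC5 rose too, by 0.58 (SE 0.13, adjusted p = 0.0111), and ORC1 was at -0.31 (adjusted p = 0.131).

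Over the 22 group means, likeness to the mean pattern of MCM2 to MCM7 was measured by Pearson's r of log2 CPM for 10018 genes with a mean of at least 5 CPM. The 8 genes outside the members with the highest r were DTL (0.974), GINS2 (0.970), CDC45 (0.964), ACOT7 (0.964), TRAIP (0.963), PKMYT1 (0.963), DONSON (0.957) and CENPM (0.950), and the median over genes was 0.012. Among the members MCM3 had 0.983 and MCM10, which is outside the mean, 0.975. MCM6 had 0.723 although it is part of the mean, CDT1 0.742 and GMNN 0.836. Within L363-CFZr groups alone MCM6 was at 0.465 and CDT1 at 0.503, and within AMO1 groups alone they were at 0.857 and 0.698. The 22 points share cell lines and DMSO groups, and the values are a description without a test.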

How the data were processed

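Poly(A) RNA of the 66 samples was sequenced from directional libraries. The deposited table holds gene counts that the authors made with kallisto; the processing notes of the submitters name hg19 as the genome build, the published methods name GRCh38, while no source used here names the version of kallisto or its annotation. The 10 genes, the other gene lists and the motifs were chosen with earlier results of these data known. Symbols were matched to Ensembl identifiers for 19299 of 20167 genes (95.7%).

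Comparisons used the quasi-likelihood test of edgeR 4.0.16 in R 4.3.3 on the deposited counts, with TMM normalization, genes kept by filterByExpr (minimum count 10, minimum total 15), only the groups compared in a fit, and Benjamini-Hochberg adjustment over all tested genes at 0.05. The script was tested on simulated data. The SE is the log2 fold change over the square root of F, and intervals are 95% intervals. Interactions are 24 h minus 6 h or L363-CFZr minus AMO1. Shares of tested genes are at the adjusted threshold in the main fit. None is given for counts of members at an unadjusted p under 0.05. Most counts from alternatives or with a library left out also lack the share of all tested genes called in that fit. CPM values and ratios are per library, the ratio with 0.5 added to each count. All 10 members are described; of each other list, at most the 2 genes with the largest change among those called in AMO1 cells with NCP26 at 24 h are named, and the 8 genes most like the MCM2 to MCM7 mean. Alternatives were DESeq2 1.42.0 and its size factors, no filter, all groups of a line (or all 22 groups across lines) in a fit with and without a term for the set, a GC offset, a replicate block, each library left out in turn and, chosen after the data were seen, an analogue as the reference. Only CFZ at 24 h in AMO1 cells and NCP22 at 6 h in L363-CFZr cells hold libraries of different sets. The term for the set rests on these groups alone. Python 3.11.15 was used for sequences and figures.

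Replicate numbers did not pair samples, since in no comparison were all 3 correlations of same-numbered deviations over 0.1. No replicate pair held identical values (0 of 66 pairs, lowest r 0.938). The published methods describe biological triplicates as the rule, while the labels do not say that replicates were separate cultures, so p-values and intervals measure only the spread between these samples, which may be technical. The precision of a value depends on the counts of its gene and on the spread between replicates. Library totals ran from 1666325 to 6596543 counts.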

Additional observations from a re-analysis of the deposited data

Results flagged for a closer look

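The effect of a treatment differed between times or lines, by an interaction term, for 26 member values. For NCP26 in AMO1 cells, 24 h minus 6 h, the differences were -0.45 for MCM3 (adjusted p = 0.0247), -0.62 for MCM4 (0.00132), -0.40 for MCM5 (0.0328), -0.49 for MCM6 (0.0109), -1.05 for MCM10 (5.50e-04), -1.14 for CDC6 (2.55e-04), -1.63 for CDT1 (7.71e-07) and -0.94 for GMNN (0.00633). For HFG they were -0.67 for MCM2 (6.56e-05), -0.52 for MCM4 (3.23e-04), -0.47 for MCM5 (0.00672), -0.37 for MCM6 (0.0123), -0.28 for MCM7 (0.0446), -1.16 for MCM10 (3.88e-05), -0.82 for CDC6 (2.13e-04) and -1.32 for CDT1 (6.49e-07). For CFZ they were 0.58 for MCM4 (0.00495) and -0.91 for CDT1 (0.00116). With CFZ 8.05% of tested genes were higher and 11.6% lower, near the share of the members called each way.

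For NCP26 in L363-CFZr cells, 24 h minus 6 h, MCM6 gave -0.91 (adjusted p = 0.0147) and MCM10 -1.05 (0.0452). Of all tested genes 0.564% were lower there. Between lines, L363-CFZr minus AMO1, NCP26 gave 0.60 for MCM6 at 6 h (0.016) and 1.5 for CDT1 at 24 h (0.00117), and HFG at 24 h gave 0.52 for MCM4 (0.0255), 0.95 for MCM5 (0.00688), 0.52 for MCM7 (0.0306) and 1.60 for CDT1 (5.33e-05). Between lines the effect was higher in 1.96% of tested genes for NCP26 at 6 h, 2.97% at 24 h and 8.06% for HFG. Times differ also in sample storage and in set. In AMO1 cells the NCP26 and HFG libraries of 24 h lie in another set than DMSO. In L363-CFZr cells NCP26 and DMSO share a set at each time, but a different set at 6 h and at 24 h. The part of storage and set in these differences was not tested beyond the term for the set.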

How the results depend on the processing

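No member value changed sign among those called. Of 410 values (197 called), the size factors of DESeq2 lost 1 call and gained 1, the DESeq2 test lost 11 and gained 7, no low-count filter lost 7 and gained 6, all groups in a fit lost 9 and gained 31, that fit with a term for the set lost 24 and gained 20, and a GC offset lost 10 and gained 7. The cause was not tested.

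Counts of members called that moved by over 1.5 times are given from the reported value to the alternative. The share of all tested genes called in each alternative is not given beside them, so a change need not be particular to the members. For NCP22 against DMSO in AMO1 cells at 6 h, 3 became 0 with the GC offset. For CFZ at 24 h, 3 became 5 with all groups. For halofuginol in L363-CFZr cells at 6 h, 3 became 1 with all groups and 0 with all groups and the set term or with the GC offset. For HFG in L363-CFZr cells at 24 h, 4 became 8 with all groups, with or without the set term. NCP26 against HFG went from 0 to 2 in AMO1 cells at 6 h with all groups, with or without the set term, and in L363-CFZr cells at 24 h from 1 to 0 with these and with DESeq2, and to 2 with no filter. DMSO over time in L363-CFZr cells went from 1 to 6 with all groups. Over time, NCP26 and HFG in AMO1 cells each went from 8 to 5 with all groups and the set term, and NCP26 in L363-CFZr cells from 2 to 7 with all groups, with or without the set term, and to 1 with no filter. NCP26 at 24 h between lines went from 1 to 2 with all groups, DESeq2, the GC offset or NCP22 as the reference, each adding MCM2.

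The replicate block lost 16 calls and gained 0, and the numbers do not pair the samples. With this block the count was 1 for CFZ in AMO1 cells at 24 h, 0 for HFG in L363-CFZr cells at 24 h and 0 for NCP26 over time in L363-CFZr cells.

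Without 1 library, 160 of 2880 values lost and 41 gained a call. The share of all tested genes called in these fits is not given beside the counts. Counts ranged from 5 to 7 (AMO1 NCP26 at 6 h), 0 to 3 (NCP22 at 6 h), 0 to 2 (halofuginol at 6 h), 1 to 4 (CFZ at 24 h), 2 to 9 (L363-CFZr NCP26 at 24 h), 0 to 8 (HFG at 24 h), 2 to 5 (AMO1 NCP26 against NCP22 at 6 h), 0 to 1 (L363-CFZr NCP26 against HFG at 24 h), 0 to 6 (L363-CFZr DMSO over time), 0 to 5 (L363-CFZr NCP26 over time), 0 to 1, 1 to 2 and 2 to 6 (NCP26 at 6 h, NCP26 at 24 h and HFG at 24 h between lines).

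On counts without length scaling the MCM6 share was 11.7% in AMO1 DMSO at 6 h, 21.5% with HFG at 24 h, and 14% with NCP22 and 30.6% with HFG in L363-CFZr cells at 6 h. Depth limits GMNN and MCM10 most, the members with the fewest counts.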
